A study of Mus musculus with 8 samples.

Results

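The annexin family was described in bone marrow stem and progenitor cells that had lost Zeb1, a zinc finger transcription factor known for repressing epithelial genes, by comparing cells with and without the epithelial surface protein EpCAM. The genes were the rows of the deposited gene table named Anxa1, Anxa2, Anxa3, Anxa4, Anxa5, Anxa6, Anxa7 and Anxa11. They make up 8 of the 12 annexin genes and 8 of the 54532 genes in the table. They were selected on their raw counts in this same comparison, whose results were known, so their differences between fractions are given as a description and carry no test. Of the other annexins, Anxa8, Anxa10 and Anxa13 had 0 counts in every library, where 3 counts, the limit that a count of 0 allows, correspond to 0.168 to 0.222 CPM, the unit of level used throughout. That limit covers counting error only.

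Libraries came from the bone marrow of C57BL/6 mice aged 8 to 12 weeks that carried floxed Zeb1 alleles and Mx1-Cre, a Cre switched on by the interferon response to pIpC, and cells were taken 14 days after the last pIpC dose. Mx1-Cre also recombines outside the blood system, including in cells around the marrow, so the loss of Zeb1 was not limited to blood cells. The sorted population was LSK (Lin-, SCA-1+ and C-KIT+), the gate that holds blood stem cells and early progenitors, divided into EpCAM+ Zeb1-/- and EpCAM- Zeb1-/- cells with 4 libraries each. Both fractions were deleted for Zeb1, so the comparison is between cells with and without EpCAM and not between mutant and control mice.

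The 8 libraries held 14114491 to 17073546 gene counts. Epcam itself was at 187 ± 32.7 CPM (SD, n = 4) in EpCAM+ and 3.86 ± 3.61 CPM (SD, n = 4) in EpCAM- cells, in the direction of the sort. Zeb1 had 363, 261, 373 and 290 counts in EpCAM+ replicates 1 to 4 and 214, 189, 157 and 129 in EpCAM-. These counts are summed over the whole gene and do not separate the deleted part, so they do not check the deletion. Of the genes behind the gate, Kit, the gene for C-KIT, was at 284.6 ± 39.9 against 208.4 ± 38.2 CPM (SD, n = 4 each), and Ly6a, which encodes SCA-1, was at 200.7 ± 106 against 41.3 ± 29.4 CPM. The fractions also differed in markers of other blood cells. Markers are called higher or lower where past an adjusted p of 0.05 in the edgeR fit described below. Of all genes fitted, 21.8% were higher and 20.8% lower in EpCAM+. Summed neutrophil markers reached 1105 to 1858 CPM in EpCAM+ and 11960 to 18580 CPM in EpCAM-, with 6 of 11 tested markers lower in EpCAM+. Summed erythroid markers reached 52.3 to 239 and 1904 to 6625 CPM, with 5 of 7 lower and 1 higher. Summed dendritic cell markers reached 18.1 to 229 and 7.1 to 19.2 CPM, with 5 of 6 higher. Summed plasma cell markers reached 217 to 3631 and 4.27 to 11.6 CPM, with 3 of 4 higher. Stem and progenitor markers summed to 2654 to 3067 and 1370 to 1993 CPM, with 9 of 11 higher. Monocyte and macrophage markers summed to 37.2 to 317 and 191 to 870 CPM, with 5 of 9 lower, and mast cell and basophil markers to 68.3 to 91.2 and 231 to 496 CPM, with 3 of 5 lower. The sums of B cell, T and natural killer cell and megakaryocyte markers overlapped between fractions. Of their tested markers 2 of 4, 2 of 3 and 1 of 7 were higher in EpCAM+ and none was lower. Some markers passed the count filter of the fit only through the fraction where they are high, so nothing is read from their calls. Through EpCAM+ these included Xcr1 (13, 2, 2 and 7 counts in EpCAM-), Clec9a, Batf3 and Ccr9 of dendritic cells. They also included Jchain (4, 0, 4 and 0 counts in EpCAM-) and Mzb1 of plasma cells, and Cd79a and Ms4a1 of B cells. Mmp8 and Cd14 passed through EpCAM-. The sums of endothelial and stromal markers did not exceed 3.24 CPM.

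Annexins are cytosolic proteins that bind negatively charged phospholipids when calcium rises, and so gather at the inner face of the plasma membrane, at endosomes and at sites of membrane damage. Several pair with small S100 proteins, which bridge membranes together. ANXA5 binds phosphatidylserine with high affinity, and the purified protein is the reagent of the annexin V stain for dying cells. The stain reads lipid exposed on the cell surface, whereas the values here are RNA levels of the cell's own gene. In these data a level is given in CPM, counts scaled to library size by the trimmed mean of M-values method. A difference is given as a log2 fold change, EpCAM+ against EpCAM-, with its standard error (SE). This SE was derived from the log2 fold change and the test statistic of the fit, so it is not a separate measure of spread.

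Promoter sequence was looked at because the cells lack Zeb1, which binds the E-box hexamer CACCTG and its reverse complement CAGGTG. RefSeq promoter windows on GRCm38.p6, each running from 250 bases before to 50 bases after a start given by RefSeq, matched 6 of the 8 annexins with 8 windows. Anxa3 and Anxa6 had none. The hexamer, searched on both strands, was in 2 of these 8 windows, 1 of Anxa7 and the window of Anxa11, against 6640 of 32851 windows in the whole table (20.2%). It was in no window of Anxa1, Anxa2, Anxa4 or Anxa5. The part before the RefSeq start is shown 5′ to 3′ on the strand of the gene for the pair with a match and for Anxa1 and Anxa5, which were higher in EpCAM+ cells and have none. RefSeq starts can differ from the gene ends in the deposited table. The Anxa1 stretch lies wholly inside the gene as placed there (chr19:20373428-20390944), and the Anxa7 and Anxa5 stretches overlap their genes in part. Capitals mark the hexamer.
Anxa7, chr14:20479942-20480191, minus strand: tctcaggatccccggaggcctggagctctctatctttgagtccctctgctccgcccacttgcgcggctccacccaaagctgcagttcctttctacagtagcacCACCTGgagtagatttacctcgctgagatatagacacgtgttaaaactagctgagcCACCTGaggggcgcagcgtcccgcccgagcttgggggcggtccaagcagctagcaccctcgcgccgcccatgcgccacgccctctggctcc
Anxa11, chr14:25841905-25842154, plus strand: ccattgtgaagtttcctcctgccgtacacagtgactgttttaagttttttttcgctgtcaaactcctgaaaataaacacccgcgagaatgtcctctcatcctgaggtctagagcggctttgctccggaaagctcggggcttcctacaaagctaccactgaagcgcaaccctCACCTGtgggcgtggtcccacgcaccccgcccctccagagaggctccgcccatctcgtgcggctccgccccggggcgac
Anxa1, chr19:20390672-20390921, minus strand: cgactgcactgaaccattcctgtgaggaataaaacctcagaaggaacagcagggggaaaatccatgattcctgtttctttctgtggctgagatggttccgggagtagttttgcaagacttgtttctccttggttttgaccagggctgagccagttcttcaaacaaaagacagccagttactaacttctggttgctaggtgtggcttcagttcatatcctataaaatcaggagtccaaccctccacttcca
Anxa5, chr3:36475888-36476137, minus strand: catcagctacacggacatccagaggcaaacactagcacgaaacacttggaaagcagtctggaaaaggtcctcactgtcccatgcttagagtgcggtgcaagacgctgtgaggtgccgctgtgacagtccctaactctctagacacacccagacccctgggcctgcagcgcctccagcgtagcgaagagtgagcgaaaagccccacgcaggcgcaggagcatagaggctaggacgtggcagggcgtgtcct
In the Anxa7 window shown the matches lie 147 and 91 bases before its RefSeq start. Another, in the part that is not shown, lies 44 bases after it. That start and all these matches lie inside the gene as placed in the deposited gene table. The other Anxa7 window, whose start falls at the gene's 5′ end there, had no match and ends within the first of these hexamers. In Anxa11 the match lies 79 bases before the start. Neither gene was past the threshold between the fractions in the fit described next. A match of letters describes the sequence and is not a binding site.

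Of the 13560 genes with enough counts to be fitted, 5779 (42.6%) were past an adjusted p of 0.05 between the fractions in the quasi-likelihood test of edgeR (Benjamini-Hochberg adjusted), 21.8% higher and 20.8% lower in EpCAM+ cells. All 8 annexins passed the filter, with 83 to 5110 counts per library. Among them 3 (Anxa1, Anxa4 and Anxa5) were past that threshold on the higher side, 1 (Anxa3) on the lower side, and 4 (Anxa2, Anxa6, Anxa7 and Anxa11) were not past it. The same 3 lay above the EpCAM- range in every EpCAM+ library, which held for 20.1% of all genes fitted, and Anxa3 lay below it in every EpCAM+ library, which held for 20.0%. The median log2 fold change was 0.46 over the 8 annexins and 0.02 over all genes fitted. With upper-quartile scaling, 3642 of all genes were higher and 2083 lower in place of 2961 and 2818, while the annexins still counted 3 and 1. Since the family was chosen with this comparison known, nothing is read from these shares.

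**Figure D1:**
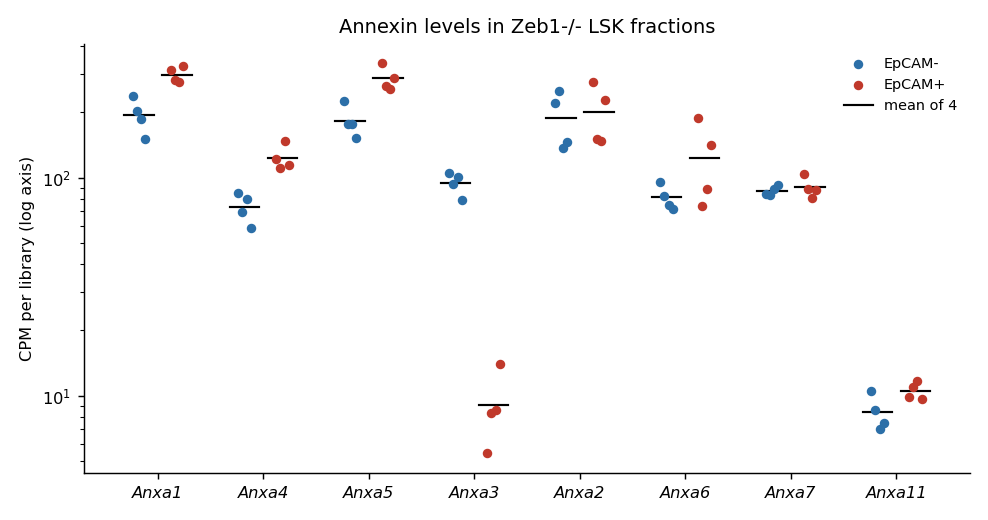
Level of each annexin in CPM (log axis) in the 4 EpCAM- libraries (blue) and the 4 EpCAM+ libraries (red), with the mean of 4 as a line. Anxa1, Anxa4 and Anxa5 do not overlap between fractions and are higher in EpCAM+, Anxa3 lies between 79.2 and 105.1 CPM in EpCAM- and between 5.43 and 13.9 CPM in EpCAM+, and the other 4 genes overlap.

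Anxa3, a small annexin known from neutrophils and their precursors, showed the widest gap of the 8. Its gene lies at chr5:96793339-96845966 on the plus strand (ENSMUSG00000029484). It had 83, 147, 154 and 215 counts in EpCAM+ replicates 1 to 4 and 1684, 1262, 1471 and 1077 in EpCAM- replicates 1 to 4. In CPM this was 5.43, 8.34, 8.61 and 13.9 against 105.1, 93.4, 100.4 and 79.2. The highest EpCAM+ library was far below the lowest EpCAM- library. The means were 9.08 ± 3.55 and 94.5 ± 11.3 CPM (SD, n = 4 each), a 10.4-fold lower level in EpCAM+ cells, and the log2 fold change was -3.38 ± 0.23 (SE). Within pairs of the same replicate number the difference was -4.24, -3.47, -3.52 and -2.50. Leaving out any 1 library kept it between -3.66 and -3.21.

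The level of Anxa3 moved with the sum of the neutrophil markers, which was mostly Mpo, though not with every marker of the list. In EpCAM- cells replicates 1 to 4 had 18580, 13680, 15380 and 11960 CPM of summed neutrophil markers, and the order of the replicates was the same as for Anxa3. In EpCAM+ cells the sums were 1105, 1271, 1158 and 1858 CPM, again lowest in replicate 1 and highest in replicate 4. Elane, with 1335, 541, 910 and 1304 counts in EpCAM+, was instead high in replicate 1. Ltf, Camp, Ngp, S100a8 and S100a9 were not past the threshold. Megakaryocyte markers, at 154.5, 216.4, 313.3 and 409.6 CPM in EpCAM+, had the full order of Anxa3 there, and their part was not tested. Each of the 13 neutrophil markers had a count in at least 1 library of each fraction. Ly6g had only 3, 1, 2 and 0 counts in EpCAM+ and 0, 0, 0 and 3 in EpCAM-. Mpo, the myeloperoxidase of neutrophil precursors, had 8663, 12296, 12276 and 18119 counts in EpCAM+ and 195539, 132076, 161509 and 118821 in EpCAM-. In a bulk sample fewer cells of a type and less RNA per cell cannot be told apart, and the part of such cells, or of the monocyte, mast cell and erythroid markers that were also lower in EpCAM+, in the Anxa3 values was not tested.

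Across the 8 libraries the genes whose log2 CPM was most like Anxa3, among 8628 protein-coding genes outside the family with a mean of at least 10 CPM, were Mpo (Pearson r = 0.998), Csf1r (r = 0.997) and Cst7 (r = 0.995). Csf1r encodes the receptor for macrophage colony-stimulating factor and Cst7 a cystatin of granule-bearing cells. Their log2 fold changes were -3.74, -3.71 and -2.67. These coefficients mostly express that each gene has a high and a low fraction and that all points come from the same libraries. After each fraction was centred on its own mean, the gene most like Anxa3 was another, Ier3ip1 (r = 0.992), whose log2 fold change was -0.12. The highest of 8628 coefficients over 8 libraries can be high through the search alone. That holds for the nearest genes of all annexins given below, and nothing is read from them.

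**Figure D2:**
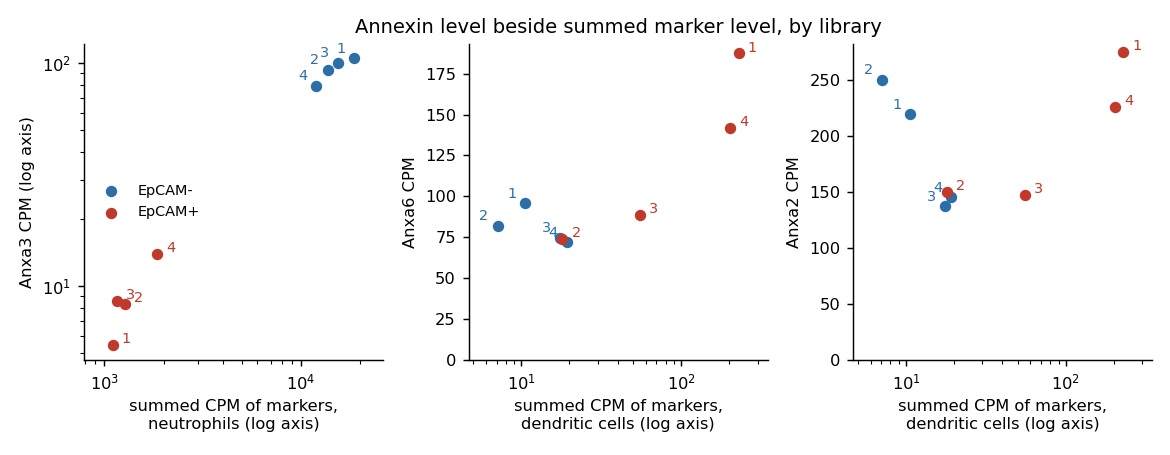
Level of Anxa3, Anxa6 and Anxa2 in CPM (log axis for Anxa3) against the summed CPM of neutrophil or dendritic cell markers (log axis), with 1 point per library, numbered by replicate, blue for EpCAM- and red for EpCAM+. Anxa3 is low where neutrophil markers are at 1105 to 1858 CPM and high where they are at 11960 to 18580 CPM. Among EpCAM+ libraries Anxa6 and Anxa2 are highest in replicates 1 and 4, where dendritic cell markers are highest.

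Anxa5, Anxa1 and Anxa4 formed the group that was higher in EpCAM+ cells, each by less than 1 log2 unit. The summed stem and progenitor markers were higher there too, and their part in these differences was not tested. Anxa5, the phosphatidylserine-binding annexin, lies at chr3:36448923-36475894 on the minus strand (ENSMUSG00000027712). It had 5110, 4667, 4585 and 4403 counts in EpCAM+ and 3609, 2372, 2593 and 2072 in EpCAM-. The CPM values were 334.1, 264.6, 256.2 and 285.5 against 225.3, 175.5, 177.0 and 152.4, and the lowest EpCAM+ library stood above the highest EpCAM- library. The means were 285.1 ± 34.9 and 182.5 ± 30.6 CPM (SD, n = 4 each) and the log2 fold change 0.64 ± 0.13 (SE). The difference within pairs was 0.57, 0.59, 0.53 and 0.91, so it was of like size in 3 pairs and larger in pair 4.

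Anxa1, a glucocorticoid-induced inhibitor of inflammation that signals through formyl peptide receptors, lies at chr19:20373428-20390944 on the minus strand (ENSMUSG00000024659). Its counts were 4753, 4925, 4908 and 5012 in EpCAM+ and 3796, 2739, 2733 and 2044 in EpCAM-. In CPM, EpCAM+ replicates had 310.7, 279.2, 274.3 and 325.0 and EpCAM- replicates 236.9, 202.7, 186.5 and 150.3. The EpCAM+ libraries lay close together, while the EpCAM- libraries spread more widely below them. The means were 297.3 ± 24.5 and 194.1 ± 36.0 CPM (SD, n = 4 each), with a log2 fold change of 0.61 ± 0.13 (SE). Within pairs the difference was 0.39, 0.46, 0.56 and 1.11, the largest again in pair 4.

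Anxa4, an annexin of secretory and epithelial cells that aggregates membranes, lies at chr6:86736840-86793584 on the minus strand (ENSMUSG00000029994). Its counts were 1860, 1962, 2627 and 1768 in EpCAM+ and 1359, 938, 1174 and 802 in EpCAM-. The CPM values were 121.6, 111.2, 146.8 and 114.6 against 84.8, 69.4, 80.1 and 59.0, with EpCAM+ replicate 3 highest and no overlap. The means were 123.6 ± 16.1 and 73.3 ± 11.5 CPM (SD, n = 4 each), and the log2 fold change was 0.75 ± 0.13 (SE). It was higher in EpCAM+ in all 4 pairs, by 0.52, 0.68, 0.87 and 0.96. Summed epithelial markers were at 203 to 254 CPM in EpCAM+ and 79.2 to 105 CPM in EpCAM-. Of these markers 4 of 4 tested were higher (all genes, 21.8%), and Cldn7 passed the filter through its EpCAM+ counts. Their part in the Anxa4 difference was not tested. A long noncoding RNA gene on the opposite strand overlaps Anxa4 and had 2 to 12 counts.

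Anxa1 and Anxa5 also varied together within the fractions. After centring each fraction on its mean, Pearson's r of their log2 CPM over the 8 libraries was 0.863, and without centring it was 0.967. For Anxa4 the nearest gene outside the family was Tesk1, a kinase gene, with r = 0.992 over 8 libraries and 0.983 after centring, and its log2 fold change was 0.56. Gabpb1 (r = 0.991) and Wasl (r = 0.990) followed, and all these points share libraries and depth. The genes most like Anxa1 and Anxa5 after centring were Chmp5 (r = 0.988) and Clip1 (r = 0.979), neither of which differed between fractions by more than 0.06 log2 units.

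**Figure D3:**
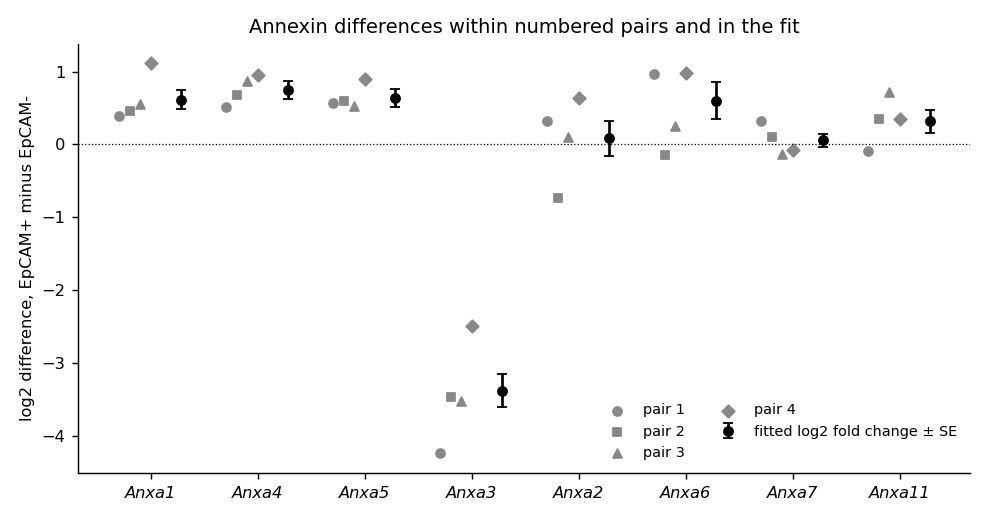
Difference of each annexin between the fractions in log2 units, EpCAM+ minus EpCAM-. Grey symbols are the 4 pairs of libraries with the same replicate number, and black points are the fitted log2 fold change ± SE over all 8 libraries. Anxa1, Anxa4 and Anxa5 lie above 0 and Anxa3 lies below 0 in all 4 pairs, while Anxa2, Anxa6, Anxa7 and Anxa11 have pairs on both sides.

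Anxa2 and Anxa6 had the widest spread between EpCAM+ libraries among the abundant members. Anxa2 lies at chr9:69453620-69491795 on the plus strand (ENSMUSG00000032231) and binds S100A10, with which it holds plasminogen activators at the cell surface. It had 4215, 2646, 2638 and 3491 counts in EpCAM+ and 3522, 3386, 2014 and 1978 in EpCAM-. The CPM values were 275.6, 150.0, 147.4 and 226.4 against 219.8, 250.5, 137.5 and 145.5, so a high and a low pair of libraries occurred in each fraction and the ranges overlapped. The means were 199.9 ± 62.4 and 188.3 ± 55.6 CPM (SD, n = 4 each), with a log2 fold change of 0.09 ± 0.24 (SE). The pairs differed by 0.33, -0.74, 0.10 and 0.64. The sign turned to -0.12 without EpCAM+ replicate 1, to -0.05 without EpCAM- replicate 3 and to -0.03 without EpCAM- replicate 4.

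Anxa6, an annexin of endosomes and the plasma membrane with a role in membrane repair, lies at chr11:54979108-55033445 on the minus strand (ENSMUSG00000018340). Its counts were 2868, 1307, 1586 and 2187 in EpCAM+ and 1537, 1109, 1093 and 979 in EpCAM-. In CPM the EpCAM+ replicates had 187.5, 74.1, 88.6 and 141.8, a coefficient of variation of 42.2%, and the EpCAM- replicates 95.9, 82.1, 74.6 and 72.0, a coefficient of variation of 13.2%. EpCAM+ replicates 1 and 4 stood above all EpCAM- libraries, and replicates 2 and 3 lay within their range. The means were 123.0 ± 51.9 and 81.2 ± 10.7 CPM (SD, n = 4 each), and the log2 fold change was 0.60 ± 0.25 (SE). The pairs differed by 0.97, -0.15, 0.25 and 0.98. With the replicate number as a block the log2 fold change was 0.52 and past the threshold, and so it was without EpCAM+ replicate 2 (0.78) and with scaling to library totals (0.67), which would make 4 annexins higher in place of 3. Without EpCAM+ replicate 1 it was 0.31 and not past the threshold.

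In EpCAM+ replicates 1 to 4 the summed dendritic cell markers were at 229, 18.1, 55.4 and 202 CPM, in the same order of libraries as Anxa6. Summed monocyte and macrophage markers, at 317, 37.2, 88.7 and 162 CPM, had that order too. That sum was mostly Ly6c2 and Ccr2. Csf1r, with 12, 31, 27 and 48 counts, and C1qa, with 4, 3, 23 and 32, did not have that order. Anxa2 shared the top of the Anxa6 order, with replicates 1 and 4 highest. The full order of Anxa2 was that of the summed B cell markers, at 125, 80.1, 76.3 and 87.4 CPM. Summed epithelial markers, at 254, 220, 203 and 253 CPM, had it as well. In EpCAM- cells the dendritic cell sums were only 10.6, 7.1, 17.5 and 19.2 CPM, and both Anxa2 and Anxa6 were higher in replicates 1 and 2, where these sums were lowest. Plasma cell markers, by contrast, were high in EpCAM+ replicate 1 (3631 CPM) and at 217 to 454 CPM in the others. The part of such cells in Anxa2 and Anxa6 was not tested. After centring each fraction, Anxa2 and Anxa6 had r = 0.826 with each other, and the nearest genes outside the family were Bnip2 for Anxa2 (r = 0.991) and Ppm1m for Anxa6 (r = 0.987).

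Anxa7 and Anxa11, members with long N-terminal regions, were not past the threshold and had overlapping fractions. Anxa7, first named synexin for the fusion of secretory granules, lies at chr14:20455260-20480133 on the minus strand (ENSMUSG00000021814). It had 1597, 1565, 1445 and 1360 counts in EpCAM+ and 1342, 1122, 1300 and 1264 in EpCAM-, which gave 104.4, 88.7, 80.8 and 88.2 CPM against 83.8, 83.0, 88.7 and 93.0 CPM. The ranges overlapped, and the means were 90.5 ± 9.95 and 87.1 ± 4.65 CPM (SD, n = 4 each). The log2 fold change was 0.06 ± 0.09 (SE), and it was -0.026 without EpCAM+ replicate 1. After centring, its nearest gene of the 8628 compared was Ezr (r = 0.970), which encodes ezrin, and such an r can come from the search alone.

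Anxa11, which binds S100A6 and PDCD6 and is known from RNA granule transport, lies at chr14:25842156-25886804 on the plus strand (ENSMUSG00000021866). It was the scarcest member in EpCAM- cells, with 150, 193, 208 and 148 counts in EpCAM+ and 168, 116, 103 and 102 in EpCAM-. The CPM values were 9.81, 10.9, 11.6 and 9.60 against 10.5, 8.58, 7.03 and 7.50. Only EpCAM- replicate 1 reached into the EpCAM+ range. The means were 10.5 ± 0.96 and 8.40 ± 1.54 CPM (SD, n = 4 each), the log2 fold change was 0.32 ± 0.16 (SE), and without EpCAM- replicate 1 it was 0.44 and past the threshold. The antisense gene Anxa11os overlaps it and had 2 to 18 counts, and the strand setting of the counting is not given in the sources used here. Anxa9, the remaining expressed annexin and not one of the 8, was at 13.9 ± 1.51 and 14.1 ± 1.36 CPM (SD, n = 4 each) with a log2 fold change of -0.02 ± 0.12 (SE; edgeR adjusted p = 0.906).

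Levels of different annexins were set side by side per kilobase of the gene length column of the table. In EpCAM+ cells the order was Anxa5 (160.4 CPM per kilobase), Anxa1 (114.0), Anxa2 (53.6), Anxa6 (42.0), Anxa4 (26.6), Anxa7 (15.1), Anxa11 (2.54) and Anxa3 (2.49). Neighbours whose library ranges overlapped were Anxa2 with Anxa6, Anxa6 with Anxa4, and Anxa11 with Anxa3. In EpCAM- cells it was Anxa5 (102.7 CPM per kilobase), Anxa1 (74.4), Anxa2 (50.5), Anxa6 (27.7), Anxa3 (26.0), Anxa4 (15.8), Anxa7 (14.5) and Anxa11 (2.03). There the ranges of Anxa5 and Anxa1, Anxa1 and Anxa2, Anxa6 and Anxa3, and Anxa4 and Anxa7 overlapped. On this scale Anxa3 was last among the 8 in EpCAM+ and at rank 5 in EpCAM- cells, while the other 7 kept their order among themselves. The FPKM values deposited by the authors, fragments scaled to gene length and library size, used other gene lengths and put Anxa1 first, at 467.7 in EpCAM+ and 290.3 in EpCAM-, with Anxa5 second. They put Anxa11 last in EpCAM+ cells, at 4.59, below Anxa3 at 10.9, and Anxa4 above Anxa7 in EpCAM+ but below it in EpCAM- cells. By CPM without length, Anxa4, Anxa6 and Anxa7 followed in this order in EpCAM+ and in the opposite order in EpCAM- cells.

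**Figure D4:**
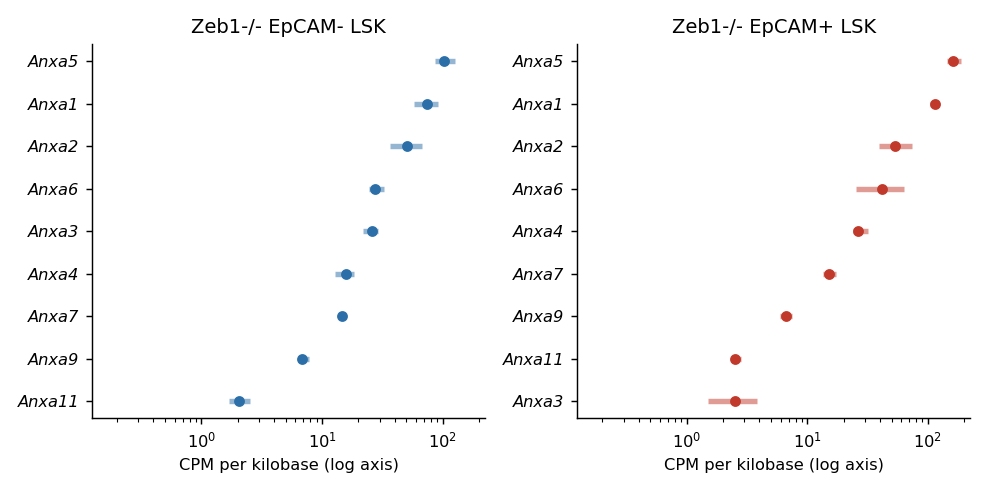
Level of each annexin with counts, including Anxa9, in CPM per kilobase (log axis), ordered within EpCAM- (blue) and EpCAM+ (red) libraries. Points are means of 4 libraries and bars run from the lowest to the highest library, and Anxa3 moves from 26.0 CPM per kilobase in EpCAM- to 2.49 in EpCAM+ cells.

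As a share of the summed CPM of the 8 annexins, Anxa3 took 0.402% to 1.16% in EpCAM+ and 9.68% to 11.8% in EpCAM- libraries. Anxa1 took 23.0% to 28.3% against 19.8% to 22.3%, and Anxa5 took 23.7% to 26.8% against 18.2% to 21.2%. Neither pair of ranges overlapped. Anxa4 took 9.01% to 14.5% against 7.19% to 9.41%, with a small overlap. The sum itself was 1139 ± 170 CPM in EpCAM+ and 909.5 ± 132 CPM in EpCAM- libraries (SD, n = 4 each), and its ranges, 987 to 1349 and 759 to 1062 CPM, overlapped.

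Proteins that bind annexins were listed apart from the annexins, but this list too was drawn up with earlier results of these data known. Its counts and p-values are thus a description, and nothing is read from them about the list. Of 9 listed, 7 were fitted, 5 were higher in EpCAM+ cells and none was lower, beside 21.8% and 20.8% of all genes fitted, with a median log2 fold change of 0.34 beside 0.02. S100a11, whose protein pairs with ANXA1, had 6880, 7183, 6918 and 6619 counts in EpCAM+ and 5410, 3782, 3477 and 2514 in EpCAM-, with no overlap in CPM. It rose from 259.9 ± 64.8 to 418.2 ± 27.3 CPM (SD, n = 4 each), with a log2 fold change of 0.69 ± 0.16 (SE; edgeR adjusted p = 0.00583). S100a6, whose protein binds ANXA11 and other annexins, had 1066, 1037, 637 and 969 counts against 497, 284, 134 and 189. It rose from 18.8 ± 9.51 to 56.7 ± 14.8 CPM, with a log2 fold change of 1.59 ± 0.33 (SE; edgeR adjusted p = 0.00392). These calls held without any 1 library.

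S100a10, the partner of ANXA2, was at 207.2 ± 12.6 against 168.3 ± 22.6 CPM (SD, n = 4 each), with a log2 fold change of 0.30 ± 0.10 (SE; edgeR adjusted p = 0.0306) and overlapping ranges. S100a1 differed by 0.34 ± 0.11 (SE; edgeR adjusted p = 0.0339). Ahnak, which encodes a giant scaffold protein recruited by ANXA2 and S100A10, had 217, 19, 83 and 147 counts in EpCAM+ and 55, 9, 8 and 17 in EpCAM-, a log2 fold change of 2.28 ± 0.74 (SE; edgeR adjusted p = 0.0310). Its EpCAM+ counts were in the same order of libraries as Anxa6, the summed dendritic cell markers and the summed monocyte and macrophage markers. The part of these markers in Ahnak was not tested. Its log2 fold change was 1.74 without EpCAM+ replicate 1 and 3.15 without EpCAM- replicate 1. The calls of S100a10, S100a1 and Ahnak were each lost without any 1 of EpCAM+ replicate 4 and EpCAM- replicates 3 and 4. S100a10 and S100a1 were also lost without EpCAM+ replicate 2 or 3, S100a1 without EpCAM- replicate 1, and Ahnak without EpCAM+ replicate 1 or EpCAM- replicate 2.

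The calcium sensors Pdcd6, the partner of ANXA7 and ANXA11, and Sri, which encodes sorcin, were not past the threshold. Pdcd6 was at 212.3 ± 17.7 against 222.7 ± 18.6 CPM (SD, n = 4 each; edgeR adjusted p = 0.543), and Sri at 342.1 ± 20.0 against 319.5 ± 3.36 CPM (edgeR adjusted p = 0.249). S100a4 had 3, 5, 5 and 4 counts in EpCAM+ and 0, 1, 0 and 0 in EpCAM-. Dysf, the gene for dysferlin, had 3 counts in EpCAM+ replicate 4 and 0 elsewhere. Neither was fitted.

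**Figure D5:**
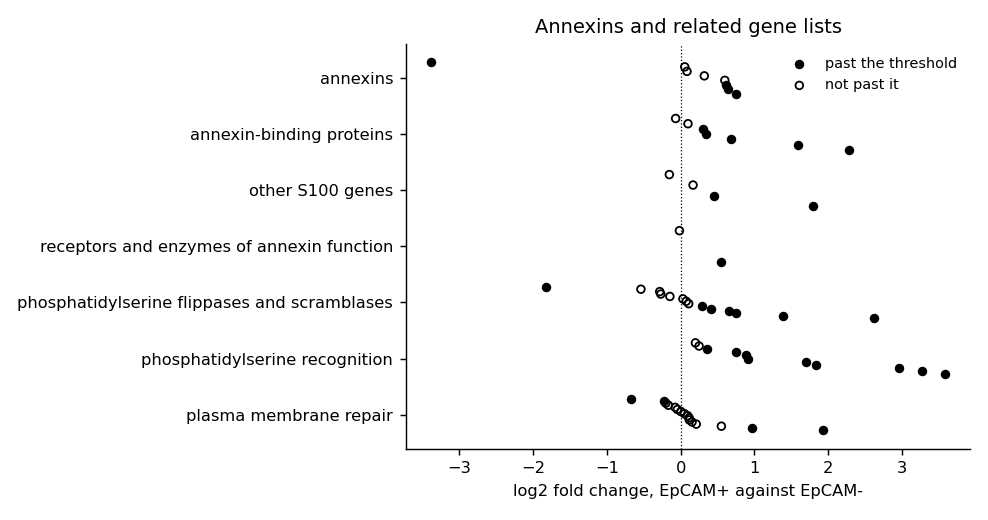
Log2 fold change, EpCAM+ against EpCAM-, of every fitted gene of the annexins and of 6 lists of related genes, filled where past an adjusted p of 0.05. Anxa3 at -3.38 is the lowest point, and all 5 filled annexin-binding genes lie above 0.

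Around the annexins, 4 S100 genes outside the first list were fitted, of which 2 were higher in EpCAM+ and none was lower (all genes, 21.8% and 20.8%). S100a13 differed by 0.45 ± 0.14 (SE; edgeR adjusted p = 0.0261). S100a5, at 9 to 25 counts in EpCAM+ and 2 to 12 in EpCAM-, differed by 1.79 ± 0.53 (SE; edgeR adjusted p = 0.0204), and by 2.59 without EpCAM- replicate 1. Both calls were lost without any 1 of EpCAM+ replicate 3 and EpCAM- replicates 3 and 4, that of S100a13 also without EpCAM+ replicate 2, and that of S100a5 also without EpCAM+ replicate 4 or EpCAM- replicate 2. S100a8 and S100a9, abundant proteins of mature neutrophils, were at 31.9 ± 9.22 against 35.3 ± 31.5 CPM and 40.7 ± 14.1 against 36.1 ± 20.8 CPM (SD, n = 4 each) and were not past the threshold. Of the receptors and enzymes tied to annexin function, 2 of 7 were fitted. Pla2g4a, a cytosolic phospholipase A2 of the kind that ANXA1 restrains, rose by 0.55 ± 0.09 (SE; edgeR adjusted p = 0.00140), and Plaur was at -0.02 ± 0.13 (SE; edgeR adjusted p = 0.925). The ANXA1 receptor genes Fpr1 and Fpr2 had 0 to 5 counts in any library.

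The lipid that ANXA5 binds is kept on the inner leaflet by flippases and exposed by scramblases. Of 18 such genes, 14 were fitted, 6 were higher and 1 was lower in EpCAM+ cells (all genes, 21.8% and 20.8%), with a median log2 fold change of 0.09. Plscr4 and Plscr2, both phospholipid scramblase family genes, rose by 1.38 ± 0.17 (SE; edgeR adjusted p = 0.000326) and by 2.63 ± 0.47 (SE; edgeR adjusted p = 0.00181). Without EpCAM- replicate 1, Plscr2 rose by 3.38. Atp8b4, an ATPase of the flippase family, fell by 1.83 on the log2 scale (SE 0.17; edgeR adjusted p = 0.000134), from 1518, 1177, 1136 and 973 counts in EpCAM- to 400, 349, 313 and 462 in EpCAM+ cells.

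Of 17 genes for the recognition of exposed phosphatidylserine, 11 were fitted, 9 were higher in EpCAM+ cells and none was lower (all genes, 21.8% and 20.8%), with a median log2 fold change of 0.91. Gas6, a ligand that bridges the lipid to its receptors, had 57, 81, 143 and 71 counts in EpCAM+ and 7, 5, 10 and 9 in EpCAM-, a log2 fold change of 3.27 ± 0.34 (SE; edgeR adjusted p = 0.000182). Gas6 passed the filter through its EpCAM+ counts. With at least 10 counts in every library it was not fitted, and 7 of 9 fitted genes of this list were higher. Mfge8, another bridging protein, rose by 0.76 ± 0.13 (SE; edgeR adjusted p = 0.00141). Havcr2, which encodes the receptor TIM-3, had 544, 145, 232 and 513 counts against 74, 44, 20 and 30, a log2 fold change of 2.96 ± 0.51 (SE; edgeR adjusted p = 0.00154). Its EpCAM+ counts followed the order of the summed dendritic cell markers and of the summed monocyte and macrophage markers, whose part in it was not tested.

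Of 18 genes of plasma membrane repair outside the annexins, 16 were fitted, 2 were higher and 2 lower in EpCAM+ cells (all genes, 21.8% and 20.8%), with a median log2 fold change of 0.07. With the replicate block 3 were higher and 3 lower. Myof, a relative of dysferlin, rose by 1.92 ± 0.44 (SE; edgeR adjusted p = 0.00642) and Capn2, a calpain, by 0.97 ± 0.25 (SE; edgeR adjusted p = 0.0118). Myof, with 36, 16, 13 and 4 counts in EpCAM-, passed the filter through its EpCAM+ counts. Ehd1, an endosomal ATPase, fell by 0.68 on the log2 scale (SE 0.12; edgeR adjusted p = 0.00207). These lists were drawn up with earlier results of these data known. In those after the annexin-binding proteins, the genes given were mainly picked by the smallest adjusted p. Their counts and p-values are thus a description, and nothing is read from them about a list. The labels give 4 mice per genotype but not whether a replicate number is 1 mouse sorted into both fractions.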

How the data were processed

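RNA-Seq libraries were made from EpCAM+ and EpCAM- Zeb1-/- LSK cells, 4 of each, with SMART-Seq v4 amplification and paired-end sequencing. The authors deposited 1 table with raw counts per gene and FPKM per library, beside their own comparisons. The submitters' processing notes name STAR 2.6.1d, featureCounts 1.5.0-p3, DESeq2 1.20.0 and GRCm38.p6. The annotation release and the treatment of strand and of reads with several matches are not given in the sources used here. The authors' comparisons (log2 fold changes and p-values of EpCAM+ against EpCAM-, pooled and by pair) were not used.

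The deposited counts were filtered with filterByExpr (13560 of 54532 genes tested), scaled by TMM and fitted with edgeR 4.0.16 (quasi-likelihood test, two-sided, threshold 0.05 after Benjamini-Hochberg adjustment over all tested genes). Log2 CPM used a prior count of 2. Amplified reads are not independent molecules. The authors' FPKM served only as a second order of levels. Fits were run on simulated data with few changed genes and independent libraries, unlike these data. That run checks the code and not the calls given here. The annexins and all lists were chosen with earlier results of these data known. Values are given for the 8 annexins, the other annexins, Epcam, Zeb1, Kit, Ly6a, all annexin-binding proteins and, in each other list, the 3 genes past the threshold with the smallest adjusted p, and Mpo beside Anxa3. S100a8, S100a9, Plaur, Fpr1 and Fpr2 were named after their values were seen. So were single markers of neutrophils other than Mpo and of monocytes and macrophages. The genes most like a member were taken by Pearson's r of log2 CPM, for all 8 libraries for Anxa3 and Anxa4 and after centring each fraction for every member.

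Libraries with the same replicate number deviated together from their fraction means (r from 0.205 to 0.356 in 4 pairs, against -0.216 to 0.0396 in 12 pairs with different numbers), so the numbers were taken to pair the samples. The pairing comes from the numbers in the labels, which do not say what they share. The main fit compared the fractions without this pairing. With the replicate number as a block, 3465 genes were higher and 3353 lower in EpCAM+, in place of 2961 and 2818. No libraries were duplicates of each other. Alternatives were other scalings (DESeq2 size factors, upper quartile, library totals) and filters, DESeq2 1.42.0, limma 3.58.1, protein-coding genes alone, a replicate block, and leaving out each library. Protein sequences were not used here.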

Additional observations from a re-analysis of the deposited data

Results flagged for a closer look

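Among 56 sets of 4 libraries checked (28 genes in 2 fractions), 3 had a library far from the other 3, and chance gives about 1 in 20. Anxa9 in EpCAM- replicate 4 was at 16.1 CPM against 13.2 to 13.6 CPM in the others. S100a10 in EpCAM+ replicate 1 was at 188.0 CPM against 213.0 to 214.0 CPM in the others, and it was the sole library of that fraction within the EpCAM- range. Plscr2 in EpCAM- replicate 1 was at 7.3 CPM against 1.91 to 2.06 CPM in the others. None of the 8 annexins had such a library.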

How the results depend on the processing

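As a description of genes chosen on this comparison, the count of annexins higher in EpCAM+ was 3 or 4 and of those lower 1 over the 18 fits. The replicate block made it 4 and 1 and added Anxa6, at 0.52, and changed no other annexin. Without single libraries the log2 fold change of Anxa2 ran from -0.12 to 0.24 and that of Anxa7 from -0.026 to 0.10. Anxa9 turned to 0.067 with upper-quartile scaling, 0.065 with library totals and 0.0049 with at least 10 counts in every library, and ran from -0.079 to 0.043 without single libraries. Pdcd6 turned to 0.018 and 0.017 with those scalings. Both raised the median of all genes from 0.02 to 0.11. Membrane repair counted 3 higher and 3 lower with the replicate block, 4 and 1 under both scalings, and 1 and 1 with at least 10 counts in every library, where other S100 genes counted 1 higher. The filter of at least 10 counts in every library also left out Ahnak, S100a5, Gas6 and Myof, and phosphatidylserine recognition counted 7 of 9 higher under it. Flippases and scramblases counted 2 lower with 1 count in any library as the filter. Annexin-binding proteins counted 6 higher with upper-quartile scaling and with library totals, where Sri was past the threshold at 0.18 in each. They also counted 6 with 1 count in any library, and 4 of 6 with at least 10 counts in every library. Without single libraries, higher calls ran from 2 to 4 for annexin-binding proteins and from 0 to 2 for other S100 genes. Lower calls ran from 1 to 2 for flippases and scramblases and from 1 to 3 for membrane repair. Anxa5 ranked 2 in EpCAM+ and 3 in EpCAM- cells by CPM without length, and 2 in both by the authors' FPKM, an order added after seeing the data. Apart from lengths and from fewer genes or libraries fitted, the cause of these changes was not tested. The scarcest values, Anxa3 in EpCAM+ and Anxa11, rest on 83 to 215 counts per library.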
